A study of Homo sapiens with 4 samples.

Results

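The genes described here are the human cluster histone genes, taken as every gene in the deposited table whose symbol begins with HIST1H, HIST2H, HIST3H or HIST4H. Of 56832 genes in the table, 85 matched, and the 42 whose normalised counts averaged 10 or more across all 4 libraries are called the members below. They comprised 3 of 8 H1 genes, 7 of 21 H2A genes, 17 of 25 H2B genes, 7 of 15 H3 genes and 8 of 16 H4 genes. RNA was sequenced from A375 cells, an established human melanoma line that the labels give as wild type, grown in serum-containing medium. The treated group was given octanoate, a fatty acid of medium chain length, at 1 mM for 48 h, and the control group received its solvent isopropanol, called vehicle here, for the same time. Each group held 2 libraries, and the labels do not say that these came from separate cultures, so p-values measure the spread between libraries, which may be technical.

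Cluster histone genes encode the linker histone H1 and the core histones H2A, H2B, H3 and H4, which wrap newly copied DNA. Most of them have no introns, are transcribed chiefly in S phase, and end their mRNA in a conserved stem-loop in place of a poly(A) tail. The stem-loop binding protein SLBP holds that structure, and a complex containing the U7 small nuclear RNA cuts the transcript just after it. Some of the genes also give polyadenylated mRNA, mainly when cells leave the cycle or differentiate. Histone genes outside the clusters include H3F3A and H2AFZ, which have introns, give polyadenylated mRNA and are transcribed throughout the cycle.

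The stem-loop is the sequence feature that sets this mRNA class apart, so it was searched by name as a 16-base pattern in all GENCODE 29 transcripts, whose GRCh38 assembly is the one the submitters name as hg38. It was found in 35 of the 85 matching genes (41.2%) and in 67 of 57133 annotated genes overall (0.117%). Of the 50 matching genes without it, 33 have gene models that stop at the coding region, so the search could not reach the place where it would lie. Among the 42 members, 25 carried it and 17 did not, and 12 of those 17 have coding-only models. The examples below run 5′ to 3′ on the gene's own strand with the stem-loop in capitals and 5 bases on either side, and their coordinates are those of the capitals. They were chosen to show the forms met in genes of different histone types, beginning with HIST1H3G, 1 of the 2 members called lower below.
HIST1H3G (H3, chr6:26270923-26270938, minus strand): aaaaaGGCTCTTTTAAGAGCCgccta
HIST1H3H (H3, chr6:27810516-27810531, plus strand): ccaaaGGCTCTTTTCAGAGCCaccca
HIST1H3E (H3, chr6:26225596-26225611, plus strand): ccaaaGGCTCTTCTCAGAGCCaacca
HIST3H2A (H2A, chr1:228457369-228457384, minus strand): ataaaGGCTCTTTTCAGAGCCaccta
HIST1H2AC (H2A, chr6:26124669-26124684, plus strand): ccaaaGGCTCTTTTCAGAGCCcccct
HIST1H2BD (H2B, chr6:26158587-26158602, plus strand): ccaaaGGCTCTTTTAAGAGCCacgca
HIST1H4I (H4, chr6:27139654-27139669, plus strand): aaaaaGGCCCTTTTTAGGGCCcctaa
HIST1H4E (H4, chr6:26205001-26205016, plus strand): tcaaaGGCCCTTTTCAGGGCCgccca

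The 25 stem-loops of the members fell into 6 sequences. The form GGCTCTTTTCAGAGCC was in 13 members, of which 4 were H2A, 8 H2B and 1 H3. The form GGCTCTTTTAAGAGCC, carried by HIST1H3G and HIST1H2BD, was in 4. The forms with GGCCC at the 5′ side, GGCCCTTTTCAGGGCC in 3 members and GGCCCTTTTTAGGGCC in 2, were found in H4 members and in none of the other types. HIST1H3E alone had GGCTCTTCTCAGAGCC, and the remaining form, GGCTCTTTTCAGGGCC, was in 2. In 21 of the 25 members at least 1 annotated transcript ran 100 or more bases past the stem-loop. HIST1H3G was annotated for 1518 bases beyond it and HIST1H2AC for up to 1128. HIST1H2BD had 39 bases beyond it in the transcript that carries it, and its other annotated transcript lacked it.

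The members lay mostly in the large HIST1 cluster of chromosome 6, which held 32 of them between positions 26031650 and 27893843. A further 7 were in HIST2 and 2 in HIST3 on chromosome 1, and HIST4H4 was on chromosome 12. GENCODE gives 40 members as protein coding and the H2B genes HIST2H2BA and HIST2H2BC as transcribed pseudogenes. The members just inside the limit of 10 were HIST1H3B (mean 10.5), HIST1H2BE (10.6) and HIST1H2BM (11.7). HIST1H4A (9.31), HIST2H2BD (9.26) and HIST1H3F (9.12) were just outside.

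Cluster histone RNA was a small part of these libraries: the members took 56.3 to 57.2 reads per 1000000. Library depth ran from 67785956 to 78005035 reads recovered from the deposited values. A count of 35 members had a mean under 100 and 15 a mean under 30, which sets the precision of everything that follows. Per 1000 coding bases the highest levels belonged to HIST3H2A (1582 normalised counts), HIST1H2BK (1383), HIST1H1C (1323), HIST1H2AC (933), HIST1H4C (894) and HIST1H4I (610). The ranges over the libraries of both groups overlapped for HIST1H2BK and HIST1H1C and for HIST1H2AC and HIST1H4C. They also overlapped for HIST3H2A (from 1478) and HIST1H1C (up to 1523). The order of these genes rests on their means and was not compared within each library. HIST1H2BK shares 74.1% of its 50-base stretches with other annotated genes, 61.4% with H2BFS, so its level is uncertain. Per 1000 annotated exon bases 5 of these 6 were again among the highest 6. HIST1H2BD (346 per 1000 coding bases), HIST2H2BE (251), HIST2H2AC (216) and HIST3H2BB (207) came next, and the ranges of the last 3 overlapped from each to the next. The first 10 thus held 1 H1, 3 H2A, 4 H2B and 2 H4 genes and no H3 gene.

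Of these leading genes, HIST1H1C encodes a linker histone and had normalised counts of 819 and 765 with vehicle and 973 and 824 with octanoate. HIST3H2A, an H2A gene of the HIST3 cluster, had 619 and 585 with vehicle and 686 and 577 with octanoate. HIST1H2BK, an H2B gene, had 532 and 496 with vehicle and 549 and 514 with octanoate. The groups overlapped for HIST3H2A and HIST1H2BK, while both octanoate libraries of HIST1H1C were above both vehicle libraries, octanoate 2 by little. HIST1H2AC had 355 and 389 with vehicle and 353 and 358 with octanoate. The H4 gene HIST1H4C had 274 and 302 with vehicle and 249 and 280 with octanoate, and HIST1H4I had 209 and 173 against 212 and 159. All 3 overlapped. The 6 genes together held 65.0% to 70.9% of the members' summed counts.

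**Figure D1:**
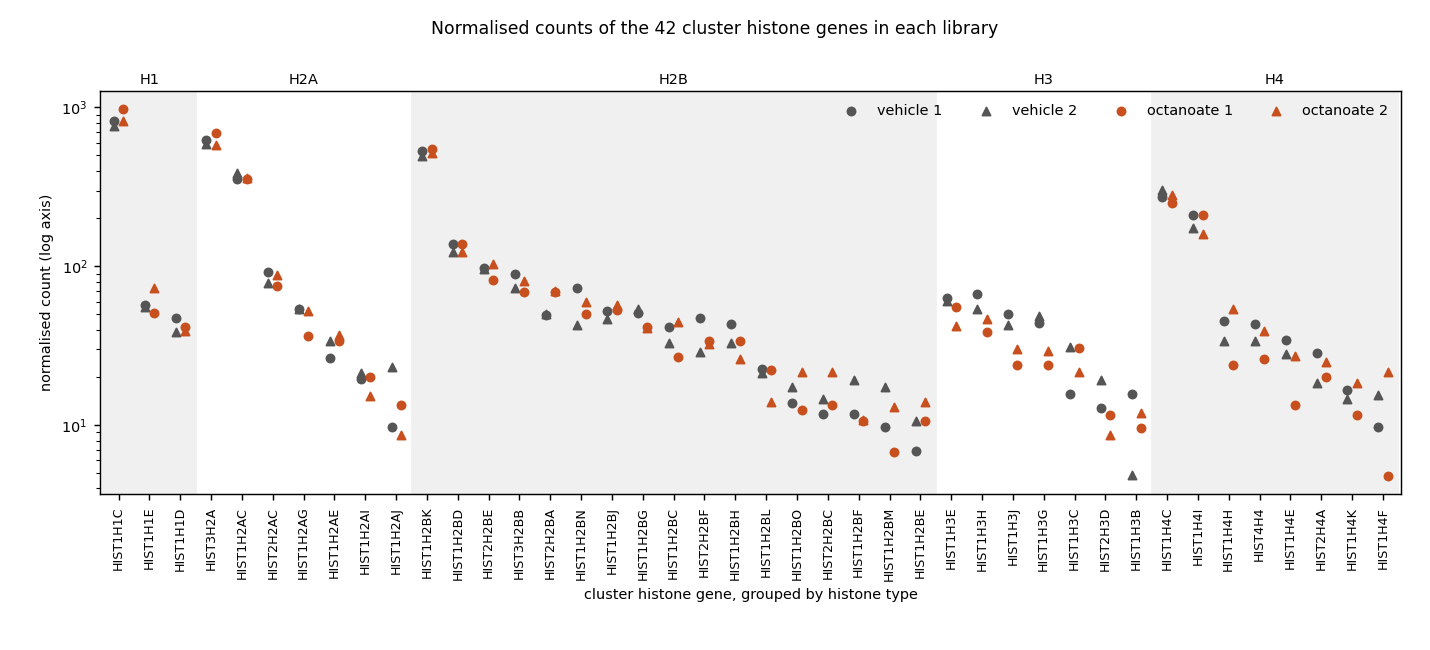
Normalised count (log axis) of each of the 42 members in the 4 libraries, grouped by histone type; grey points are vehicle, orange points octanoate, circles library 1 and triangles library 2. Both octanoate points of HIST1H3G and HIST1H3J lie below both vehicle points, while most other members overlap.

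A group of 6 members is known for giving polyadenylated mRNA as well: HIST1H1C, HIST1H2AC, HIST1H2BC, HIST1H2BD, HIST1H2BK and HIST2H2BE. They held 45.9% to 49.8% of the members' summed counts, and 3 of them were among the 6 highest members both per coding base and per exon base. None of the 6 was called between octanoate and vehicle, and their median log2 difference was -0.03. HIST1H2BD had 138 and 123 with vehicle and 139 and 122 with octanoate, and HIST2H2BE had 98.2 and 96.9 against 81.8 and 103. HIST1H2BC was lower, with 41.2 and 32.9 against 27.0 and 44.4. In all 3 the groups overlapped.

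Whether octanoate changed cluster histone RNA was asked with limma on log2(normalised count + 1), adjusted over all 20250 genes with a mean of at least 10, a gene being called at an adjusted p under 0.05. Of the 42 members, 0 were called higher and 2 were called lower, both of them H3 genes. Over all tested genes 29.9% were called, 16.2% higher and 13.7% lower, so the members' share of 4.76% was below the background. Such shares were lower among genes with low counts: 9.06% of tested genes with a mean of 10 to 30, 18.4% of those with 30 to 100, 38.6% of those with 100 to 1000 and 38.1% of those above were called. In the first 3 of these ranges 0 of 15, 2 of 20 and 0 of 7 members were called. At an unadjusted p under 0.05 the count was 4 of the 42 members. All called genes, 29.9% of those tested, pass this limit too. In the authors' deposited table, made with DESeq2 per its name, 0 of the 42 had an adjusted p under 0.05 and 0 an unadjusted p under 0.05, against 4329 genes with an adjusted p under 0.05 of 33533 listed.

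Most members lay slightly below 0. The median log2 difference was -0.09 (all tested genes, 0.01), a shift smaller than the spread of this median between replicates (SD 0.10). Of the 42 members, 30 were below 0 (71.4%), against 49.3% of all tested genes. The sum over the 42 members did not show this, being 4319 and 4103 with vehicle and 4262 and 4132 with octanoate (4211 ± 153 and 4197 ± 91.8, SD, n = 2 each), a ratio of 0.997. The sum is set by the few abundant genes, which had small differences in either direction. By level, the median log2 difference was -0.21 for the 15 members with a mean of 10 to 30, -0.11 for the 20 with 30 to 100 and -0.00 for the 7 above 100. The libraries of the 2 groups did not overlap for 12 members (28.6%), 3 higher and 9 lower, while 63.1% of all tested genes did not overlap, 32.6% higher and 30.5% lower. The standard error of a member's log2 difference had a median of 0.28. The 95% confidence interval from limma lay within -1 and 1 for 30 of the 42, so a 2-fold change lay outside it. For the rest the interval reached a 2-fold change in at least 1 direction. The authors' deposited table lists a larger standard error for every member. It was 0.45 against 0.26 in limma for HIST1H1D, and 0.49 against 0.28 for HIST1H3G. The count of 30 thus depends on limma's standard errors, and intervals from the deposited ones were not computed. Smaller changes could be missed where the standard error was large, with a median of 0.42 for members with a mean of 10 to 30.

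Both called genes encode the core histone H3 and lie in the HIST1 cluster. HIST1H3G (chr6:26269405-26271815) had normalised counts of 44.2 and 48.4 with vehicle and 24.1 and 29.3 with octanoate. Both octanoate libraries were well below both vehicle libraries. The log2 level of HIST1H3G fell by 0.78 (SE 0.28, 95% confidence interval -1.35 to -0.21, limma adjusted p = 0.0357). HIST1H3J (chr6:27890382-27893106) had 50.1 and 42.6 with vehicle and 24.1 and 30.3 with octanoate, and again the groups were apart. It fell by 0.75 (SE 0.28, interval -1.33 to -0.18, limma adjusted p = 0.0435). HIST1H3J overlaps the H2A gene HIST1H2AM on the same strand, with 40.9% of its 50-base stretches also present there, and reads from the shared stretches cannot be told apart. HIST1H2AM was listed at 0 in all 4 libraries.

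The calls on both genes were near the threshold. Each was lost without vehicle 1, without vehicle 2 or without octanoate 1, with DESeq2 on the recovered reads, with no filter on low counts and with no intensity trend, and the adjusted p reached 0.192 for HIST1H3G and 0.222 for HIST1H3J. Their log2 difference stayed negative, between -0.91 and -0.64 for HIST1H3G and between -0.91 and -0.59 for HIST1H3J. The authors' deposited table lists HIST1H3G with a log2 fold change of -0.80 and an adjusted p of 0.250, the smallest of any member, and HIST1H3J with -0.77 and 0.272.

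**Figure D2:**
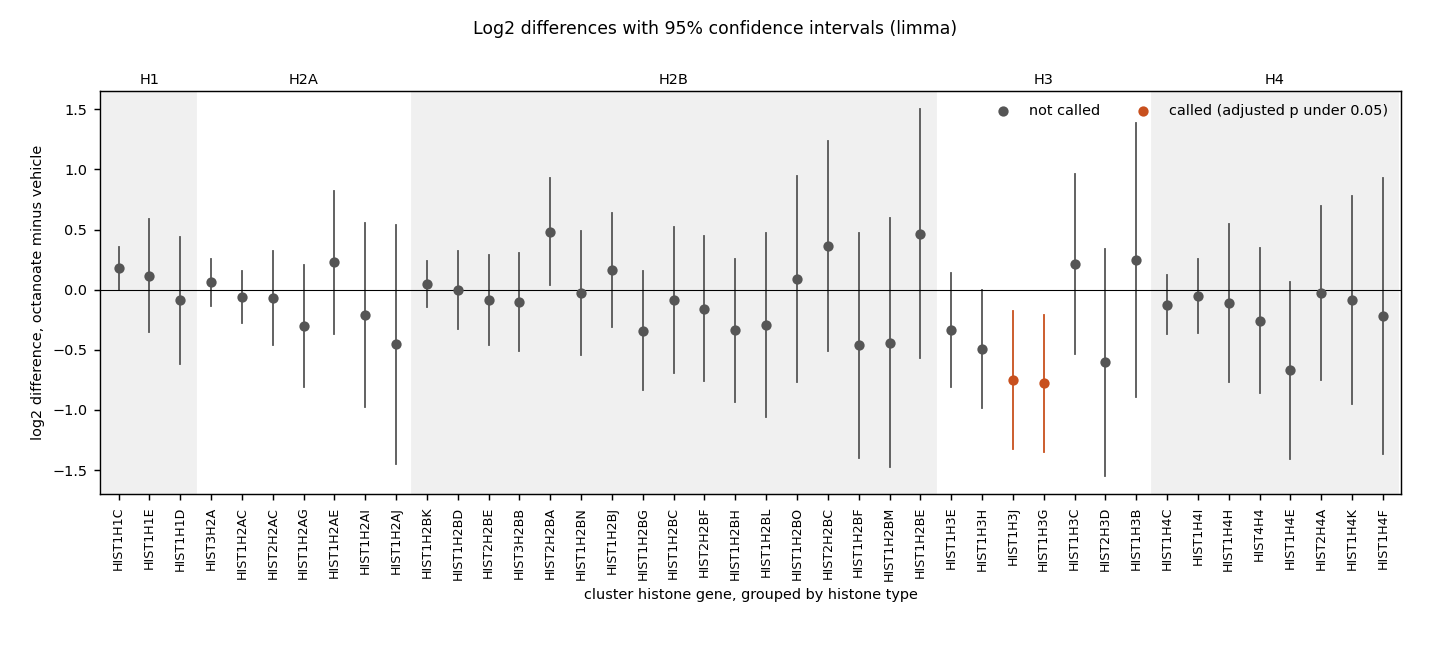
Log2 difference, octanoate minus vehicle, of each member with its 95% confidence interval from limma, grouped by histone type; orange marks the called genes. HIST1H3J and HIST1H3G at -0.75 and -0.78 are the called members, and the intervals widen for members with low counts.

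By histone type, H3 had the lowest median. Its 7 members had a median log2 difference of -0.50, with 5 below 0, the same 5 without overlap between groups, and 2 called. The share without overlap was 71.4%, against 63.1% of all tested genes, and the share called was 28.6%, against 29.9%. Both were thus near the background taken over all levels. The H3 members had means of only 10.5 to 55.2, where fewer genes were called. The share was 9.06% of tested genes with a mean of 10 to 30 and 18.4% of those with 30 to 100. Whether the H3 share differed from these was not tested. The summed H3 counts were 268 and 261 with vehicle and 194 and 191 with octanoate (264 ± 5.19 and 193 ± 2.61, SD, n = 2 each), a ratio of 0.729. An SD from 2 libraries is itself uncertain, so these small SDs do not show how precise the sums are. Without HIST1H3G and HIST1H3J, a choice made after their values were seen, the other 5 summed to 174 and 170 with vehicle and 146 and 131 with octanoate, a ratio of 0.808. The sums of vehicle and octanoate were apart in both cases, but with 2 libraries a group the smallest p of an exact two-sided permutation test is 0.333. Leaving out 1 library moved the H3 median between -0.53 and -0.42.

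Among the other H3 genes, HIST1H3H had 66.7 and 54.3 with vehicle and 38.5 and 46.6 with octanoate. HIST1H3E had 62.8 and 60.1 with vehicle and 55.8 and 42.3 with octanoate. Neither was called, although both octanoate libraries were below both vehicle libraries in each: the log2 difference was -0.50 (limma adjusted p = 0.121) for HIST1H3H and -0.33 (adjusted p = 0.299) for HIST1H3E. HIST2H3D, named because it is the remaining H3 member without overlap, had 12.8 and 19.4 with vehicle and 11.6 and 8.67 with octanoate. HIST1H3C and HIST1H3B, the members above 0, had log2 differences of 0.22 and 0.25 with wide intervals, -0.53 to 0.96 and -0.89 to 1.38.

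All 8 H4 members had a log2 difference below 0, from -0.67 to -0.03, with a median of -0.12, and 0 were called. The means on the count scale did not all go this way: HIST1H4F had 9.82 and 15.5 with vehicle and 4.81 and 21.7 with octanoate, a mean of 12.7 against 13.2, and a log2 difference of -0.22. Its octanoate libraries lay on either side of the vehicle pair, and the authors' deposited table lists it with a log2 fold change of 0.05. The summed counts of the 8 were 661 and 620 with vehicle and 561 and 624 with octanoate, so octanoate 2 lay within the vehicle range. HIST1H4E had 34.4 and 28.1 with vehicle and 13.5 and 27.1 with octanoate, so both octanoate libraries were lower, octanoate 2 by little. Its log2 difference of -0.67 (limma adjusted p = 0.166) was not called. HIST1H4H had 45.2 and 33.9 against 24.1 and 54.2, the octanoate libraries lying on either side of the vehicle pair. HIST4H4 had 43.2 and 33.9 against 26.0 and 39.0 and overlapped too. The H4 median was -0.47 without octanoate 2 and 0.072 without octanoate 1, so 1 library decided its direction.

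The H1 members went the other way in sum, with 923 and 859 in vehicle and 1066 and 935 in octanoate, a ratio of 1.12, and HIST1H1C made up most of each sum. The groups were apart, octanoate 2 by little. HIST1H1C had a log2 difference of 0.18 (interval -0.00 to 0.36, limma adjusted p = 0.135), which was not called. It was called without octanoate 2 (0.30, adjusted p = 0.0270) and was 0.06 without octanoate 1. HIST1H1E had 56.9 and 55.2 with vehicle and 51.0 and 72.6 with octanoate, and HIST1H1D had 47.1 and 38.8 against 41.4 and 39.0. Both overlapped and neither was called.

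H2A and H2B were level in sum. The 7 H2A members summed to 1177 and 1185 with vehicle and 1219 and 1135 with octanoate (ratio 0.996), with a median log2 difference of -0.07 and 0 called. HIST1H2AG had 54.0 and 54.3 against 36.6 and 52.0, a log2 difference of -0.30, and was the H2A member without overlap. HIST2H2AC had 92.3 and 78.5 against 75.1 and 87.8, and the log2 differences of HIST1H2AE and HIST1H2AJ were 0.23 and -0.45 with adjusted p of 0.606 and 0.525 in limma. The 17 H2B members summed to 1291 and 1178 with vehicle and 1222 and 1247 with octanoate (ratio 1.00), with a median of -0.09 and 0 called. HIST1H2BG had 51.0 and 54.3 with vehicle and 41.4 and 41.2 with octanoate, apart but not called (-0.34, limma adjusted p = 0.305). HIST1H2BH overlapped at 43.2 and 32.9 against 33.7 and 26.0.

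The H2B pseudogene HIST2H2BA had the largest positive log2 difference of the members. It had 49.1 and 50.4 with vehicle and 69.3 and 70.4 with octanoate, the libraries of each group being close and the groups apart. Its log2 difference of 0.48 (SE 0.21, limma adjusted p = 0.0946) was not called, and 63.5% of its 50-base stretches also occur in other annotated genes, mostly HIST2H2BF. It was called with no intensity trend (adjusted p = 0.0389). HIST1H1C and HIST1H2BJ, named after their values were seen, were the other members with both octanoate libraries higher. Differences between histone types were not tested.

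**Figure D3:**
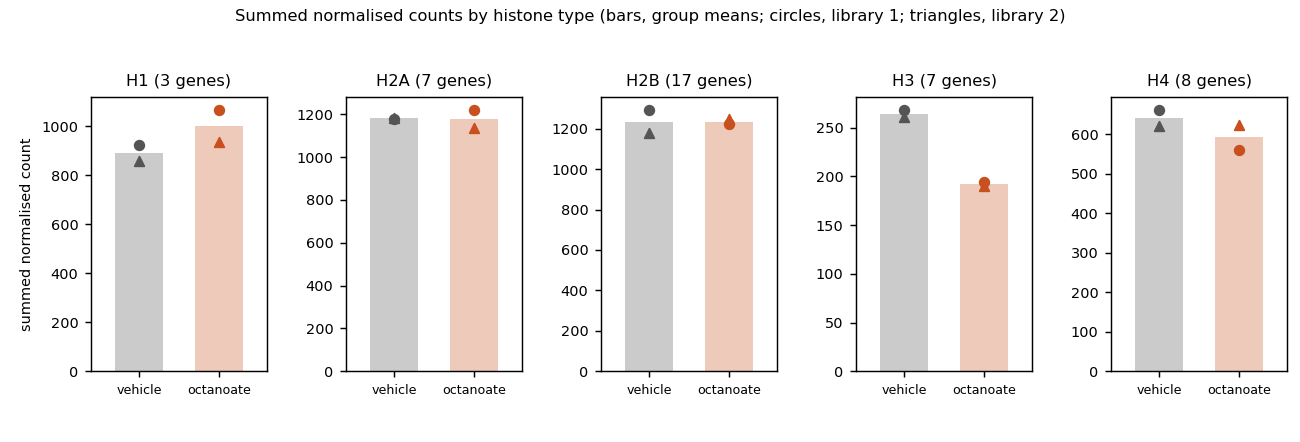
Summed normalised count of the members of each histone type; bars are group means of 2 libraries, circles library 1 and triangles library 2, each panel with its own axis from 0. For H3 the octanoate points (194 and 191) lie below the vehicle points (268 and 261), and for H2A, H2B and H4 the groups overlap.

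The other 43 matching genes had a mean under 10, and 14 of them were listed at 0 in all 4 libraries. They included 12 of the 14 matching pseudogenes. The testis genes HIST1H1T and HIST1H2AA were listed at 0 throughout, and HIST1H2BA and HIST3H3 at no more than 3 reads in any library. Near-identical copies were also here: all 50-base stretches of HIST2H2AA3 and 97.1% of those of HIST2H2AA4 occur in the other gene, and both were listed between 0 and 1.96, and HIST2H3A and HIST2H3C, also identical over these stretches, between 0 and 1.08. HIST2H4A, an H4 member, shares 97.5% of its stretches with HIST2H4B. It had counts of 18.4 to 28.5, and HIST2H4B had 0 to 2.94. Such sharing above 50% was found in 7 of the 42 members, HIST1H2BK among them, and in 11 of the 43 other genes. How reads with several matches were counted is not given in the sources used here, so the levels of these genes are uncertain.

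Histone promoters are known for elements shared within a type, so 3 motifs were searched on both strands in the 250 bases before each start in RefSeq (GRCh38.p14), where 34 of the 42 members were matched. TATAAA was present in 61.8% of the members and in 13.0% of 27305 genes. CCAAT was present in 85.3% and 37.0%, and the octamer ATTTGCAT in 35.3% and 2.03%. The octamer was in 5 of 7 H2A and 7 of 11 H2B members and in none of the H1, H3 and H4 members. CCAAT was in all matched H1, H2A, H2B and H3 members and in 2 of 7 H4 members. The 160 bases upstream of the RefSeq start are shown for a called gene and for the 3 genes with the highest level per coding base. For HIST1H3G this stretch lies inside the longer GENCODE gene (chr6:26269405-26271815), whose start is further upstream. The motifs are in capitals, CCAAT on the opposite strand appearing as ATTGG.
HIST1H3G (chr6:26271414-26271573, minus strand): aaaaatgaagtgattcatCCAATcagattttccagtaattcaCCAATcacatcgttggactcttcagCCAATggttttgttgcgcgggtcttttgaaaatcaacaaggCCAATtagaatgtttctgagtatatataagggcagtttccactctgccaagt
HIST3H2A (chr1:228457874-228458033, minus strand): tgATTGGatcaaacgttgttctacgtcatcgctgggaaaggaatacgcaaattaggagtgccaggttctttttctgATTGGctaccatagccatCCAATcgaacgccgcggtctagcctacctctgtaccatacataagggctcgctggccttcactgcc
HIST1H2BK (chr6:27146859-27147018, minus strand): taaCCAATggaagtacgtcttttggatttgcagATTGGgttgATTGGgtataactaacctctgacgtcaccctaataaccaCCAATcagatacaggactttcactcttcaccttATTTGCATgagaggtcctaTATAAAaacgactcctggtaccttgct
HIST1H1C (chr6:26056471-26056630, minus strand): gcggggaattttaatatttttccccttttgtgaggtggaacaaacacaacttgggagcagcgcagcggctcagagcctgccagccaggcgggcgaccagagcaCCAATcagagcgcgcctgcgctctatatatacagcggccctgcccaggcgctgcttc

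The H2B gene HIST1H2BK shows the octamer followed by TATAAA, HIST1H3G shows several CCAAT boxes and no octamer, and HIST1H1C a single CCAAT. These matches describe letters and say nothing of which factor was bound in these cells.

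Histone genes outside the clusters were far more abundant and moved in both directions. Of 12 such genes tested, 3 were called higher and 3 lower, 6 in all, against 29.9% of all tested genes and 38.1% of those with a mean of at least 1000. H1FX, a linker histone variant, had 6004 and 5590 with vehicle and 8645 and 7318 with octanoate, and rose by 0.46 in log2 level (limma adjusted p = 1.32e-05). H1F0, the linker histone of resting and differentiated cells, had 29259 and 27328 with vehicle and 33763 and 33963 with octanoate and rose by 0.26 (adjusted p = 0.00136 in limma). The H2A variant gene H2AFJ rose by 0.42. In all 3 both octanoate libraries were above both vehicle libraries.

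H2AFX encodes the H2A variant that is phosphorylated around DNA breaks, and its transcript, like those of the clusters, carries a stem-loop. The GENCODE sequence is shown because it has the GGCCC side of the H4 members.
H2AFX (chr11:119094898-119094913, minus strand): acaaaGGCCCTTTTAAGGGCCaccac

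H2AFX had 11492 and 10378 with vehicle and 8232 and 7494 with octanoate and fell by 0.48 in log2 level (limma adjusted p = 2.42e-06). CENPA, the H3 variant of centromeres, fell by 0.28 and H3F3A, a gene of the replacement H3, by 0.16 (limma adjusted p = 0.0334). The call on H3F3A was lost in 6 of 14 alternatives, among them TMM scaling (adjusted p = 0.0755) and without vehicle 1, octanoate 1 or octanoate 2 (up to 0.237). That on CENPA was lost in 3, among them without octanoate 2 (adjusted p = 0.0581). H3F3B, the other replacement H3 gene, had 47155 and 45815 with vehicle and 45984 and 45764 with octanoate, a log2 difference of -0.02. H2AFZ, the variant found at promoters, had 21942 and 21660 against 22038 and 19547, a difference of -0.07. Neither was called.

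Set against their cluster counterparts per coding base, H3F3A and H3F3B together were 222 and 220 times the 7 cluster H3 genes with vehicle and 289 and 293 times with octanoate. H2AFX, H2AFZ and H2AFV together were 38.2 and 36.0 times the cluster H2A genes with vehicle and 33.4 and 32.5 times with octanoate, and H1F0 with H1FX 41.5 and 41.6 against 43.0 and 47.9 times the cluster H1 genes. Per exon base the ratios were lower, 45.6 to 58.5 for H3, 12.4 to 14.97 for H2A and 11.6 to 13.5 for H1. Octanoate libraries had the higher H3 ratio and the lower H2A ratio on either scale. What the libraries retain of mRNA without a poly(A) tail bears on these ratios and was not tested.

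Of 24 tested genes that transcribe, process or degrade histone mRNA, 2 were called higher and 4 lower, with a median log2 difference of -0.04. The share called was 25.0%, against 29.9% of all tested genes and 38.1% of those with a mean of at least 1000, where this whole list lay. SLBP, which binds the stem-loops shown above, had 9398 and 8523 with vehicle and 7948 and 7320 with octanoate, both octanoate libraries being lower. It fell by 0.23 in log2 level (limma adjusted p = 0.00621), a call lost without vehicle 1 (adjusted p = 0.119), without octanoate 2 (0.113), with no filter (0.141) and with no intensity trend (0.195). NPAT, the S-phase coactivator of histone genes, had 2971 and 3025 with vehicle and 2630 and 2801 with octanoate and was not called (-0.14, limma adjusted p = 0.0898). Its kinase CDK2 rose by 0.31, while the cyclin gene CCNE2, whose product activates CDK2, fell by 0.54. ZCCHC6, a uridylyltransferase of histone mRNA decay, rose by 0.30, SRRT, of the cap-binding complex, fell by 0.24, and COIL, of Cajal bodies, by 0.16. The call on COIL was lost in 7 of 14 alternatives, with any 1 library left out among them (adjusted p up to 0.294), and that on SRRT with no filter (0.0524) and with no intensity trend (0.119).

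Histone chaperones carry new histones to DNA. Of 19 tested, 11 were called lower (57.9%) and 0 higher, with a median of -0.17, where 13.7% of all tested genes were called lower and 38.1% of those with a mean of at least 1000 were called in either direction. ASF1B, the chaperone of H3 and H4 in dividing cells, had 7001 and 6572 with vehicle and 5392 and 4938 with octanoate and fell by 0.39. HIRA, which deposits the replacement H3, had 835 and 791 against 588 and 645 and fell by 0.40. In both the groups were apart. RBBP4 fell by 0.32, ASF1A by 0.26, RBBP7 by 0.24 and HJURP, the chaperone of CENPA, by 0.23. The call on HJURP was lost in 3 of 14 alternatives. These were without octanoate 2, with no filter (limma adjusted p = 0.0576) and with no intensity trend (0.122).

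DNA replication genes, whose transcription accompanies that of the cluster histones in S phase, were called lower in 13 of 33 (39.4%) and higher in 2, with a median of -0.14. The 2 called higher, E2F1 and the nucleoside transporter gene SLC29A1 (0.19), do not encode parts of the replication machinery. The 45.5% called in all compares with 38.1% of all tested genes with a mean of at least 1000. TK1, thymidine kinase, fell by 0.42, the flap nuclease gene FEN1 by 0.40, TYMS, thymidylate synthase, by 0.35, the sliding clamp gene PCNA by 0.31 and GINS2 of the replicative helicase by 0.31. E2F1, a transcription factor of this programme, rose by 0.47, from 4682 and 4060 to 6246 and 5826. Most genes of these lists had many more reads than the members, so the lists' shares of called genes are not comparable with the 2 of 42 above. With no intensity trend, 23 of the 24 called genes named from the lists and from the histone genes outside the clusters lost their call. CCNE2 was the exception, and SLC29A1 was not among the 24.

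**Figure D4:**
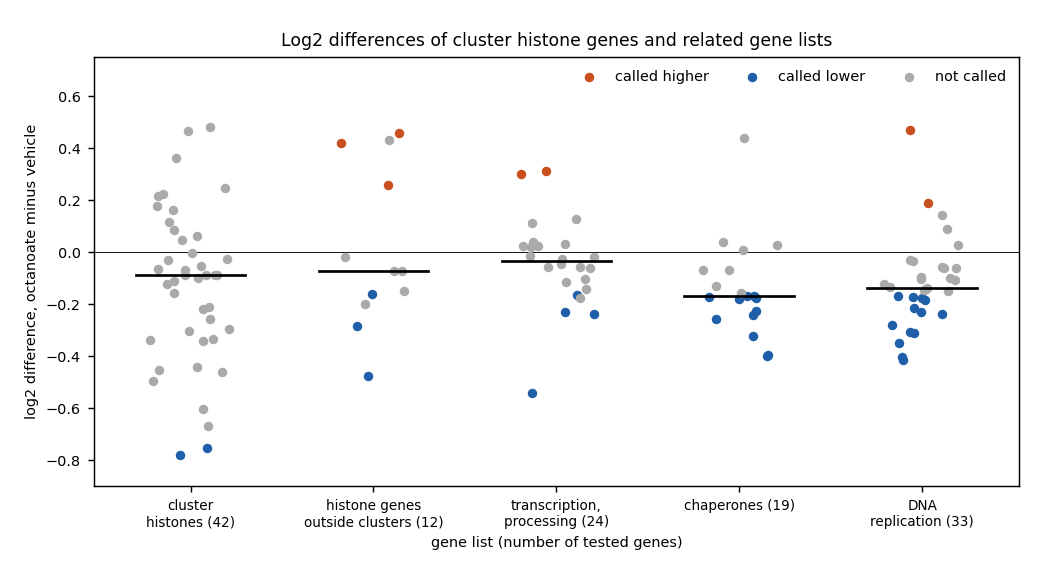
Log2 difference, octanoate minus vehicle, of each tested gene in the cluster histone group and the 4 related lists; black bars are medians, orange and blue mark genes called higher and lower. Medians run from -0.17 for chaperones to -0.04 for transcription and processing genes, and cluster histone genes have the widest spread.

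RNAs that normally lack a poly(A) tail are given because most cluster histone mRNA lacks one too. Of 9 such RNAs, 6 were tested and 1 was called (16.7%, against 29.9% of all tested genes): RN7SL1, which has near-identical copies, at 6856 and 8376 with vehicle and 8878 and 8526 with octanoate, rose by 0.20 (limma adjusted p = 0.0354). RN7SL2 overlapped at 14278 and 15127 against 15494 and 14711, a log2 difference of 0.04. RMRP was 123 and 153 with vehicle and 97.2 and 246 with octanoate, and RPPH1 50.1 and 52.3 against 36.6 and 62.9. For both, octanoate 1 was the lowest library and octanoate 2 the highest. SCARNA2 was at 15.7 to 29.1 and SCARNA10 at 7.75 to 18.3. The untested RNAs were RN7SK and RNU7-1, listed at 0 in all 4 libraries, and TERC, at no more than 1.08. Whether the libraries were made by poly(A) selection or rRNA depletion is not stated in the labels, and the part of this in the members' values was not tested. Of 10 melanocyte and melanoma markers, 9 were tested, 4 were called lower and 1 higher. The share called was 55.6%, against 29.9% of all tested genes and 38.1% of those with a mean of at least 1000. The tested markers lay on both sides of that level. SOX10 was at 34072 to 41363, MITF at 2414 to 3533 and TYR at 1.93 to 3.93. MITF and S100B fell by 0.48 and 1.12 in log2 level, and PMEL, at only 65.8 to 98.2, rose by 0.55. MLANA (mean 43.9) and DCT (mean 21.4) were low too and were not called, with log2 differences of 0.13 and -0.83. Of the markers of other cells, epithelial KRT18 was at 11199 to 13790 while EPCAM and CDH1 were under 32, the fibroblast genes PDGFRB and COL1A1 were at 1138 to 1309 and 228 to 394, and the blood markers PTPRC, CD3E and CD68 were between 1.08 and 10.8.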

How the data were processed

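The authors deposited normalised counts per gene, a signal that the table's name gives as made by DESeq2. Per the submitters' processing notes, bcl2fastq 2.17, Trim Galore, STAR 2.4, Picard, HTSeq 0.9.1, DESeq2 and hg38 were used; use of strand, handling of multiply mapped reads and annotation are not given in the sources used here. All positive values (100%) were whole multiples of 1 read within 0.001 of a read, which gave the recovered read counts. The authors' deposited comparison holds log2 fold changes with standard errors, a test score and p-values.

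The comparison was fitted in R 4.3.3 with limma 3.58.1 (trended variance prior, no covariate) on log2(normalised count + 1) over genes with a mean of at least 10, two-sided, with Benjamini-Hochberg adjustment. Log2 differences on this scale understate changes of low genes. Alternatives were pseudocounts 0.5 and 5, no filter, a mean of at least 50, TMM or equal totals, no trend, a replicate block, each library left out, and edgeR 4.0.16 and DESeq2 1.42.0 on recovered reads. The code was tested on simulated data. The members, lists and named genes were chosen with earlier results of these data known. Named genes were, in each histone type, the 3 with the highest mean and the 3 with the smallest p, the 6 known for polyadenylated mRNA, and up to 6 per other list by p. Exon and coding lengths, overlaps and stem-loops came from GENCODE 29. Newer symbols were matched to RefSeq promoters through synonyms, and ambiguous ones were left out.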

Additional observations from a re-analysis of the deposited data

How the results depend on the processing

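The median log2 difference of the members in each fit kept its sign and stayed within the replicate spread under all 14 alternatives; the fit held 71 matching genes with no filter, 16 with a mean of at least 50 and 41 in 3 of the 4 fits with 1 library left out. The number of called genes was 2595 with no filter and 1625 with no intensity trend, and 4382 to 4878 with 1 library left out. Members called lower numbered 0 with no filter, with a mean of at least 50 (16 members in the fit, HIST1H3G and HIST1H3J not among them), with no intensity trend and with DESeq2, and 0 to 3 with 1 library left out. The 0 came without vehicle 1, vehicle 2 or octanoate 1, and without octanoate 2 HIST1H4E was called too. Members called higher numbered 1 with no intensity trend (HIST2H2BA) and 0 to 1 with 1 library left out (HIST1H1C without octanoate 2). With no filter the median was 0.015 for H1 and -0.24 for H2A, and with a mean of at least 50 it was -0.41 for H3. With 1 library left out the medians ran from -0.045 to 0.14 for H1, -0.13 to 0.00048 for H2A, -0.15 to 0.070 for H2B, -0.53 to -0.42 for H3 and -0.47 to 0.072 for H4. The cause of these moves was not tested.

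The replicate numbers of the labels are not said to mark a shared culture or day, and deviations of same-numbered libraries correlated at 0.126 over 20250 genes. With the replicate block 8376 genes were called, among them 1 member higher (HIST1H1C, adjusted p = 0.0293) and 2 lower, and NPAT was called lower (adjusted p = 0.0104). For the 52 named genes, 656 of 715 values under alternatives kept direction and side of the threshold, 54 lost the call, 5 gained it and 0 reversed; 23 differences of uncalled genes changed sign. Low counts limit the precision: 15 of 42 members had a mean under 30, where the median standard error was 0.42.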
